A study of Mus musculus with 6 samples.

Results

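Aldh2, the mitochondrial enzyme that oxidizes acetaldehyde, was examined with 9 further dehydrogenase genes of aldehyde metabolism. The cells were haematopoietic stem cells (HSCs) sorted with or without the surface receptor CD93. The 10 genes, out of 47937 in the deposited table, were chosen by symbol, and the family was taken because Aldh2 was lower in every CD93-positive library. The values of this contrast therefore chose the set. They are given below as a description, and calls of single members are no support for it. Aldh2 was lower in all 3 CD93-positive libraries. Aldh1a1, Aldh1a7 and Aldh3a2 were higher in all 3, and the groups overlapped for the other 6 genes. Among 11805 tested genes, 18.3% had every CD93-positive library above every CD93-negative library, and 1.92% had every one below.

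Aldehydes such as acetaldehyde and formaldehyde arise in ordinary metabolism and react with DNA and protein. Aldehyde dehydrogenases oxidize them to acids, and each enzyme of the family favours its own substrates. In mice, loss of Aldh2 or Adh5 together with the Fanconi pathway of DNA crosslink repair damages HSCs, and aldehyde dehydrogenase activity is widely used as a marker in the isolation of blood stem cells.

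The cells came from wild-type C57BL/6 mice aged 8 weeks, described as male, with marrow of femora and tibiae pooled. After depletion of lineage-positive cells they were gated as Kit and Sca-1 positive, CD34, Flt3 and CD48 negative and Slam1 positive, and sorted as CD93-positive (CD93pos) or CD93-negative (CD93neg). Polyadenylated RNA was sequenced in 3 libraries of each group. The replicates are called biological, without a statement of the animals behind each library, so any p-value measures only the spread between these libraries.

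The libraries differed in ways that bear on every value below. Assigned reads numbered 5794528 to 9509304 in CD93pos and 2832653 to 4614396 in CD93neg. Of 11805 tested genes, 2.10% to 13.5% had no read in a CD93pos library, against 71.0%, 26.4% and 16.0% in CD93neg replicates 1, 2 and 3. Xist, transcribed from an inactive X chromosome, had 2419 and 1143 reads in CD93neg replicates 2 and 3, where the Y-linked gene Ddx3y had 0, so these libraries went against the male label. Ddx3y had 855, 328 and 243 reads in CD93pos, where Xist had at most 12, and CD93neg replicate 1 had no read of either. For those 2 CD93neg libraries, sex and group cannot be told apart in any difference given below. Cd93, the gene of the sorted receptor, had 95.3, 173 and 76.9 reads per 1000000 assigned reads (CPM) in CD93pos and 0, 90.8 and 12.7 in CD93neg. The library labelled CD93neg replicate 2 thus lay within the CD93pos range and went against its label at the transcript level, and groups are named by their labels throughout. The 10 HSC markers were all read in 5 libraries, and 4 of them in CD93neg replicate 1, where Procr, Slamf1, Fgd5, Hoxb5, Ctnnal1 and Ly6a were at 0. All 9 neutrophil markers were read in CD93neg replicates 2 and 3, at a summed 12116 and 8452 CPM, and none in CD93neg replicate 1. In CD93pos the neutrophil sum was 2.9 to 267.7 CPM. B lineage markers showed the same division, with summed levels of 11122 CPM in CD93neg replicate 2 and 34017 CPM in replicate 3. CD93neg replicate 1 had 0.4 CPM of them, and the CD93pos libraries had 73.0 to 97.6. Results are therefore also given without single libraries.

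Aldh2 was the most abundant of the 10 genes and was lower in CD93pos. Its normalized counts, which are reads divided by a size factor for each library, were 2241, 1601 and 2831 in CD93pos replicates 1, 2 and 3. They were 6848, 4624 and 6788 in CD93neg replicates 1, 2 and 3. The highest CD93pos library lay below the lowest CD93neg library. The means were 2224 ± 616 and 6086 ± 1267 (SD, n = 3 each), a ratio of 2.74 toward CD93neg. Leaving out any 1 library gave ratios of 2.40 to 3.17. Against CD93neg replicate 1 alone, the library with no read of any neutrophil marker, the ratio was 3.08. That library was also the sparse one. In CD93neg replicates 2 and 3, which held the neutrophil and B lineage reads, their part in the Aldh2 level was not tested. The summed level of 7 dendritic cell markers also divided the groups, at 201.1 to 311.7 CPM in CD93pos (2 or 3 markers read) and 397.9 to 2659 in CD93neg (2 to 5 read), and its part was not tested. Tcf4 had the most reads of the 7 in each library, 1577, 1771 and 1355 in CD93pos and 6941, 904 and 1103 in CD93neg. These reads are not scaled for depth. At equal depth Tcf4 in CD93neg replicates 1 and 3 lay above every CD93pos library, and CD93neg replicate 2 lay within the CD93pos range. Irf8 had 99, 35 and 216 reads against 590, 624 and 252, and Flt3 had 236, 0 and 195 against 0, 172 and 13. Only Tcf4 and Irf8 were read in CD93neg replicate 1. Cd209a and Xcr1 had no read in any library, and Siglech had reads in CD93neg replicate 3 alone. In bulk RNA, fewer cells that express a gene and less RNA per cell cannot be told apart.

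The pattern of Aldh2 was the rarer one in these libraries. Of the 11805 tested genes, 227, or 1.92%, had every CD93pos library below every CD93neg library, and 2162, or 18.3%, had every CD93pos library above. Since the set was chosen for Aldh2, its place among the 1.92% is no result about the family. The log2 fold change of Aldh2, as CD93pos minus CD93neg on log2(normalized count + 1), was -1.47 with a standard error of 0.29. The median of all tested genes was 2.36, and 0.43 without CD93neg replicate 1. The fold change of Aldh2 was -1.37 without that library. Relative to the median gene, Aldh2 stood at -3.82 with all libraries and at -1.80 without CD93neg replicate 1. Across tested genes, limma called 0 at an adjusted p under 0.05, or 0%, with 1391 higher and 45 lower in CD93pos at an unadjusted p under 0.05. edgeR called 0 as well, and DESeq2 called 705. Among the 10 genes, limma called 0 with all libraries. It called Aldh1a7 without CD93pos replicate 2, when 6.56% of tested genes were called, and Aldh7a1 without CD93neg replicate 3, when 15.9% were. Without CD93neg replicates 2 and 3 it called 8 of the 10, when 66.9% of tested genes were called against a lone sparse library.

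**Figure D1:**
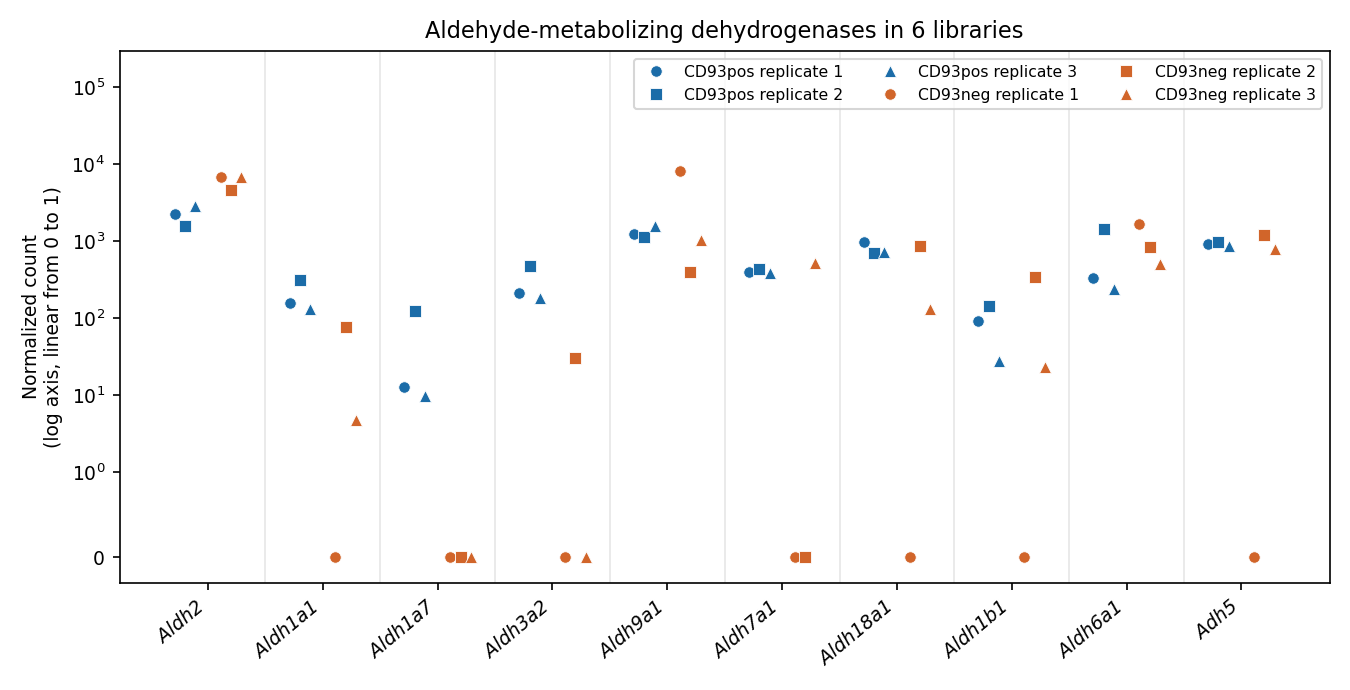
Normalized counts of the 10 genes in each library, on a log axis that is linear from 0 to 1, with CD93pos in blue and CD93neg in orange and the marker giving the replicate. Aldh2 was at most 2831 in CD93pos and at least 4624 in CD93neg, and CD93neg replicate 1 (orange circles) lay at 0 for 7 of the 10 genes.

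Aldh2 lies on chromosome 5 (GRCm38, 121566027 to 121593824, minus strand). It shares 130 bases of exon with Gm42879 on the opposite strand, which had at most 32 reads in a library. In reads per kilobase of exon and 1000000 assigned reads (RPKM), Aldh2 reached 101, 68.0 and 125 in CD93pos and 260, 205 and 282 in CD93neg. It took 34.0%, 21.7% and 40.5% of the reads of the 10 genes in CD93pos, and 41.1%, 55.1% and 69.3% in CD93neg. The share was lower in every CD93pos library, but the 40.5% of CD93pos replicate 3 (95% Wilson interval 39.6% to 41.4%) and the 41.1% of CD93neg replicate 1 (40.1% to 42.1%) had overlapping intervals. These intervals cover counting error only. The 10 genes together made up 1514, 1606 and 1587 CPM in CD93pos and 3239, 1912 and 2087 CPM in CD93neg. Their summed level was thus higher in each CD93neg library, where Aldh2 made up more of it. Aldh2 chose the set and is part of this sum, so the sum is no separate result. Aldh9a1 made up 48.8% of the sum in CD93neg replicate 1, against 4.69% and 10.4% in CD93neg replicates 2 and 3.

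**Figure D2:**
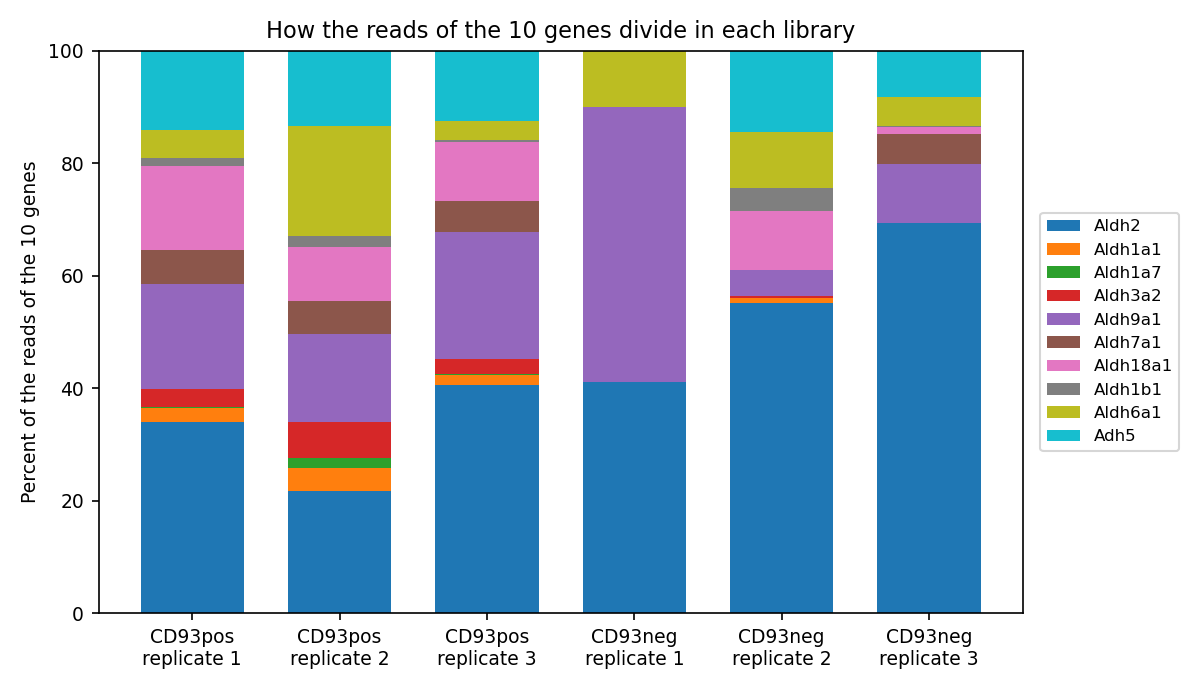
Percent of the reads of the 10 genes that each gene took, for each library as a stacked bar. Aldh2 (lowest segment) took 21.7% to 40.5% in CD93pos and 41.1% to 69.3% in CD93neg, and Aldh9a1 took 48.8% in CD93neg replicate 1.

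Aldh1b1, the mitochondrial relative of Aldh2 that also accepts acetaldehyde, did not follow it. Its normalized counts were 91.9, 145 and 27.7 in CD93pos and 0, 342 and 23.4 in CD93neg. CD93neg replicate 2 was the highest library and CD93neg replicate 1 had no read. Mean values were 88.2 ± 58.7 and 122 ± 191 (SD, n = 3 each). The ratio of CD93pos to CD93neg was 0.723, and 7.52 without CD93neg replicate 2. The log2 fold change was 1.84 (SE 2.34), opposite in sign to the ratio of the means, and -0.33 without CD93neg replicate 1. Aldh1b1 lies on chromosome 4 (45799022 to 45804604, plus strand).

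Adh5 encodes the dehydrogenase that oxidizes formaldehyde bound to glutathione. It had normalized counts of 926, 987 and 873 in CD93pos and 0, 1216 and 800 in CD93neg. The CD93pos libraries lay close together, and CD93neg replicates 2 and 3 lay on either side of them. The mean was 928 ± 57.0 in CD93pos and 672 ± 618 in CD93neg, a ratio of 1.38. Without CD93neg replicate 1 the ratio was 0.921. Its log2 fold change of 3.23 (SE 2.74) likewise became -0.09. Adh5 lies on chromosome 3 (138443093 to 138455499, plus strand).

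The cytosolic enzymes Aldh1a1 and Aldh1a7 were higher in CD93pos. Aldh1a1 oxidizes retinaldehyde to retinoic acid, and Aldh1a7 is its close relative in rodents. For Aldh1a1 the normalized counts were 158, 309 and 130 in CD93pos and 0, 77.1 and 4.69 in CD93neg. Every CD93pos library was above every CD93neg library. Mean values were 199 ± 96.3 and 27.3 ± 43.2 (SD, n = 3 each), a ratio of 7.30. Without CD93neg replicate 2 the ratio was 84.9, and it was 4.87 to 8.57 without any other single library. The log2 fold change was 4.61 (SE 1.99), and 3.14 without CD93neg replicate 1.

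Aldh1a7 was read in CD93pos only, at 28, 157 and 16 reads or normalized counts of 12.8, 124 and 9.85. It had 0 reads in each CD93neg library. CD93pos replicate 2 held most of these reads. By library it was at 2.94, 27.1 and 2.24 CPM in CD93pos, beside floors of 1.06, 0.650 and 0.999 CPM for 3 reads in CD93neg. With 3 reads taken as the floor for the 3 CD93neg libraries together, pooled reads put Aldh1a7 at least 31.2-fold higher in CD93pos. This bound covers counting error only. It does not cover zeros such as that of Adh5, with 0 reads in CD93neg replicate 1 and 1278 in replicate 2. Without CD93pos replicate 2 this bound was 9.20-fold, without CD93neg replicate 2 it was 17.4-fold and without CD93pos replicate 1 it was 46.5-fold. In the authors' deposited DESeq2 table, 5.58% of 11813 genes were called higher in CD93pos and 0.389% lower at an adjusted p under 0.05. Aldh1a7 was the only one of the 10 genes called there, with a deposited log2 fold change of 7.58 in the authors' deposited table.

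The 2 genes lie near each other on chromosome 19, Aldh1a1 at 20492715 to 20643465 on the plus strand and Aldh1a7 at 20692953 to 20727562 on the minus strand. Of the 50-base words in Aldh1a7 transcripts, 7.49% also occur in Aldh1a1, as do 3.06% the other way, so some reads could belong to either. One promoter window of each is shown because these windows share a long run beside the start, while both genes had the same direction. RefSeq (GRCm38.p6) gives Aldh1a1 2 windows and Aldh1a7 1. The 250 bases before the start are printed for the downstream Aldh1a1 window (chr19:20601718-20601967, plus strand) and for Aldh1a7 (chr19:20727557-20727806, minus strand). They read 5′ to 3′ on the gene's strand, with motif matches in capitals.
Aldh1a1: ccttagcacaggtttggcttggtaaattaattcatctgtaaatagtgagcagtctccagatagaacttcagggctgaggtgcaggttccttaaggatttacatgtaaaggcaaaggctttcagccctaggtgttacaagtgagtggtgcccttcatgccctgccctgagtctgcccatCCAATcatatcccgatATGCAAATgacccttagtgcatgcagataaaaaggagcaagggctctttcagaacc
Aldh1a7: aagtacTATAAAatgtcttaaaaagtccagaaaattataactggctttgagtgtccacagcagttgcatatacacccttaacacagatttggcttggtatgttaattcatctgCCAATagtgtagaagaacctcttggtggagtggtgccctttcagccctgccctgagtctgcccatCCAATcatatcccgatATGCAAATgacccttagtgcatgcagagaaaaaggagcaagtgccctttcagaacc

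Both windows hold the same run of 65 bases, which begins 94 bases before the start. Of the last 100 bases, 94 are identical at the same position, against 35 of the first 150. The motifs searched on both strands were CCAAT, the octamer ATGCAAAT, TATAAA, the GC box GGGCGG and the E-box CACGTG. They were chosen after the sequences had been seen. The shared run holds CCAAT and ATGCAAAT, beginning 72 and 56 bases before the start in both printed windows. CCAAT occurs in 33.8% of all 32851 RefSeq windows of this length, and ATGCAAAT in 1.6%. TATAAA, found far upstream in Aldh1a7, occurs in 12.4%. Each of the 2 printed windows has 1 CG pair, where the median window has 6. The other Aldh1a1 window (chr19:20492333-20492582), which lies nearer the gene start given above, holds none of the motifs and has 3 CG pairs. A match is a run of letters and not a measured site.

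Aldh3a2, the fatty aldehyde dehydrogenase of the endoplasmic reticulum, was also higher in CD93pos. Its normalized counts were 211, 475 and 181 in CD93pos and 0, 30.4 and 0 in CD93neg. CD93neg replicate 2 was the only CD93neg library with a read, and it lay below every CD93pos library. Mean values were 289 ± 162 and 10.1 ± 17.6 (SD, n = 3 each), a ratio of 28.5. It was 19.0 to 33.8 with another library left out, and without CD93neg replicate 2 the remaining CD93neg libraries were listed at 0. The log2 fold change was 6.38 (SE 1.86), and 5.55 without CD93neg replicate 1. The 3 genes above every CD93neg library stand against a background of 18.3% of tested genes. All 3 were highest in CD93pos replicate 2. Mast cell and basophil markers divided the same libraries: 7 of 7 were read in each CD93pos library, at sums of 634.9, 1406 and 1006 CPM with the highest in replicate 2. CD93neg replicate 2 had 2 of the 7 read and the other CD93neg libraries had 1 each, at sums of 0.4, 354.3 and 245.1 CPM in order of replicate, and Prss34, Ms4a2, Fcer1a, Hdc and Mcpt8 were at 0. Of the reads of these markers, not scaled for depth, Gata2 had 5136, 2019 and 2217 in CD93pos and 1, 1508 and 736 in CD93neg. At equal depth Gata2 in CD93neg replicate 2 lay within the CD93pos range, so this marker did not divide the groups. It was the only one read in CD93neg replicates 1 and 3, and Cpa3, with 127 reads, was the other in replicate 2. The summed level of megakaryocyte markers also divided the groups, at 1276.5, 635.4 and 1115.5 CPM in CD93pos and 298.0, 500.2 and 315.7 in CD93neg. Of the 6 markers, 6, 5 and 6 were read in CD93pos and 1, 5 and 5 in CD93neg. Gp9, the only one read in CD93neg replicate 1, had 752, 284 and 545 reads against 844, 123 and 138. Gp1ba had 231, 47 and 215 against 0, 423 and 77. Pf4, Itga2b and Vwf had more reads in every CD93pos library than in any CD93neg library. Ppbp was read in CD93pos replicates 1 and 3 only. Within CD93pos the megakaryocyte sum was lowest in replicate 2. The part of these cell types in the 3 genes was not tested.

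The Aldh3a2 window is shown because the 3 genes were higher in the same libraries, while it looks different from the printed windows of Aldh1a1 and Aldh1a7. It covers chr11:61267187-61267436 on the minus strand, printed in the same way.
Aldh3a2: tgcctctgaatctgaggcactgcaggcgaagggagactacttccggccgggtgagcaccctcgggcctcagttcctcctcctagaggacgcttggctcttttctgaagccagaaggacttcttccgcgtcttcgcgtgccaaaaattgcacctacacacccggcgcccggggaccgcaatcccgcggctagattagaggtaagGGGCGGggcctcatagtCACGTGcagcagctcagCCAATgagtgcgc

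The Aldh3a2 window has 18 CG pairs, and 78.3% of RefSeq windows have fewer. From left to right its capitals mark a GC box, an E-box and CCAAT, which begin 47, 30 and 13 bases before the start. GGGCGG occurs in 32.7% of windows and CACGTG in 6.02%. It holds no ATGCAAAT. The gene lies on chromosome 11 (61223417 to 61267464). Windows were taken for 8 of the 10 genes. None was found for Aldh2, and chromosome 18, where Aldh7a1 lies, was left out of this step.

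**Figure D3:**
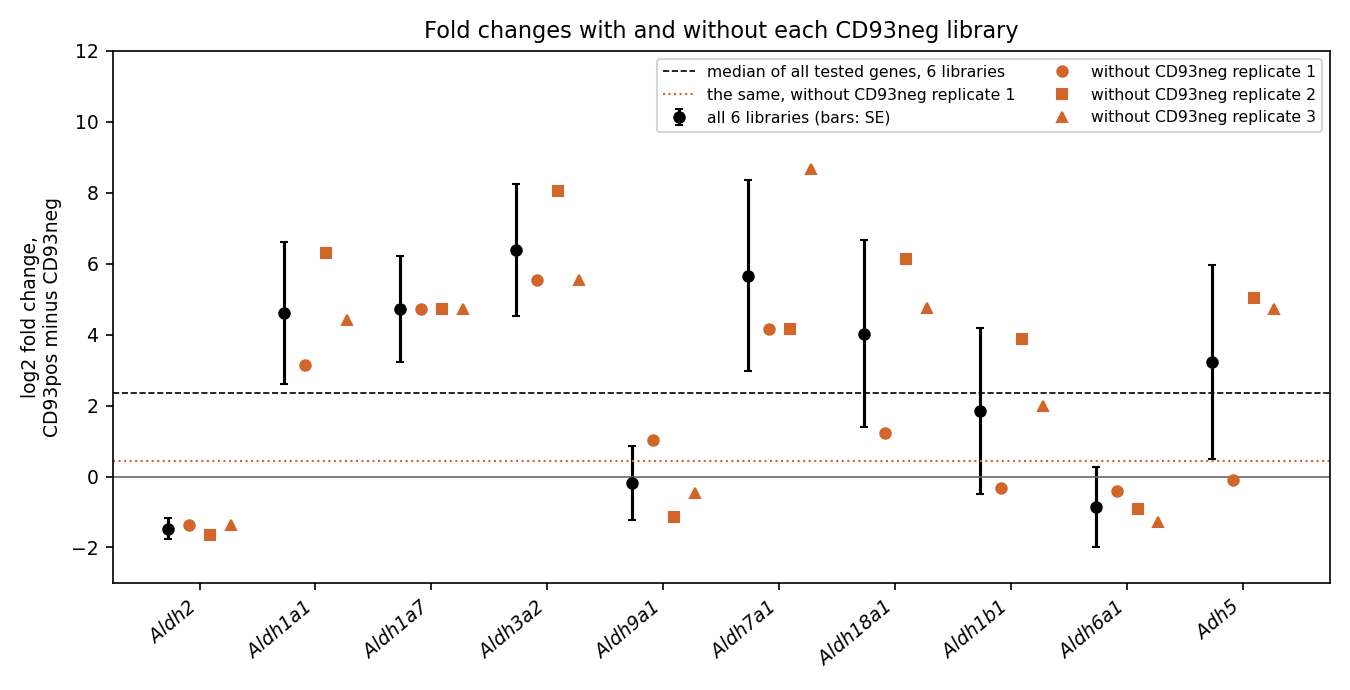
log2 fold change of each gene, CD93pos minus CD93neg, with all 6 libraries (black, bars are the standard error) and without each CD93neg library (orange). Aldh2 stayed between -1.65 and -1.37, whereas Aldh9a1, Aldh1b1 and Adh5 changed sign without CD93neg replicate 1. The dashed and dotted lines give the median of all tested genes, 2.36 and 0.43.

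Aldh9a1 makes the precursor of carnitine and also converts aminobutyraldehyde. It was the second most abundant gene of the 10, and CD93neg replicate 1 decided its difference. Its normalized counts were 1226, 1147 and 1580 in CD93pos and 8129, 394 and 1022 in CD93neg. CD93neg replicate 1 was the highest library, while CD93neg replicates 2 and 3 lay below all of CD93pos. The means were 1318 ± 231 and 3182 ± 4296 (SD, n = 3 each). The ratio was 2.41 toward CD93neg with all libraries and 0.537 without CD93neg replicate 1, which reverses it. The log2 fold change moved from -0.19 (SE 1.04) to 1.04. Aldh9a1 took 48.8% of the reads of the 10 genes in CD93neg replicate 1, against 4.69% and 10.4% in the other CD93neg libraries. It lies on chromosome 1 (167349991 to 167368532, plus strand).

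Among the enzymes of amino acid metabolism, Aldh7a1 acts on the semialdehyde of lysine breakdown. It had steady normalized counts of 400, 434 and 390 in CD93pos and 0, 0 and 524 in CD93neg. CD93neg replicate 3 alone was read, above every CD93pos library. The means were 408 ± 23.1 and 175 ± 302, a ratio of 2.34 with overlapping groups, and 1.56 without CD93neg replicate 1 or without CD93neg replicate 2. Without CD93neg replicate 3 the CD93neg group was listed at 0. Its log2 fold change was 5.66 (SE 2.69). Aldh7a1 lies on chromosome 18 (56509687 to 56572951, minus strand) and overlaps 300 bases of exon of Phax on the other strand. Phax was read in the same libraries except CD93neg replicate 2, which had 373 Phax reads and no Aldh7a1 read.

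Aldh18a1 makes the semialdehyde from which proline and ornithine are built. Its normalized counts were 983, 712 and 726 in CD93pos and 0, 874 and 131 in CD93neg. CD93neg replicate 2 lay within the CD93pos range, and the other CD93neg libraries lay below it. The means were 807 ± 153 and 335 ± 471, a ratio of 2.41. The ratio was 1.61 without CD93neg replicate 1 and 12.3 without CD93neg replicate 2. The log2 fold change was 4.03 (SE 2.63), and 1.23 without CD93neg replicate 1. Aldh18a1 lies on chromosome 19 (40550257 to 40588463, minus strand).

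Aldh6a1 oxidizes the semialdehydes of valine and thymine breakdown. Normalized counts of 332, 1440 and 238 in CD93pos stood against 1677, 834 and 502 in CD93neg. CD93pos replicate 2 was high among the CD93pos libraries and lay within the CD93neg range, while the other CD93pos libraries lay below every CD93neg library. The means were 670 ± 668 and 1005 ± 606, a ratio of CD93pos to CD93neg of 0.667. It was 0.284 without CD93pos replicate 2 and 1.003 without CD93neg replicate 1. Its log2 fold change was -0.87 (SE 1.13). Aldh6a1 lies on chromosome 12 (84430717 to 84451004, minus strand) and shares 1078 bases of exon with Bbof1 on the opposite strand. Bbof1 had at most 11 reads in a library.

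The order of the genes by level per length divided them into abundant and scarce members. Mean RPKM over the 6 libraries was 174 for Aldh2 and 137 for Aldh9a1, followed by Adh5 (33.1), Aldh18a1 (31.7) and Aldh6a1 (30.8). Lower still were Aldh7a1 (12.4), Aldh1b1 (10.3), Aldh3a2 (5.93), Aldh1a1 (5.12) and Aldh1a7 (2.60). All 9 pairs of neighbours in this order overlapped in their per-library values. Aldh2 was above Aldh9a1 in 4 of 6 libraries. Within CD93pos, 8 of 9 pairs overlapped, and the exception was Aldh9a1 (73.9 to 106) above Aldh18a1 (38.1 to 55.6). Using the longest transcript as the length moved 6 genes in the order, but Aldh2 and Aldh9a1 were again first and second and Aldh1a7 last.

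**Figure D4:**
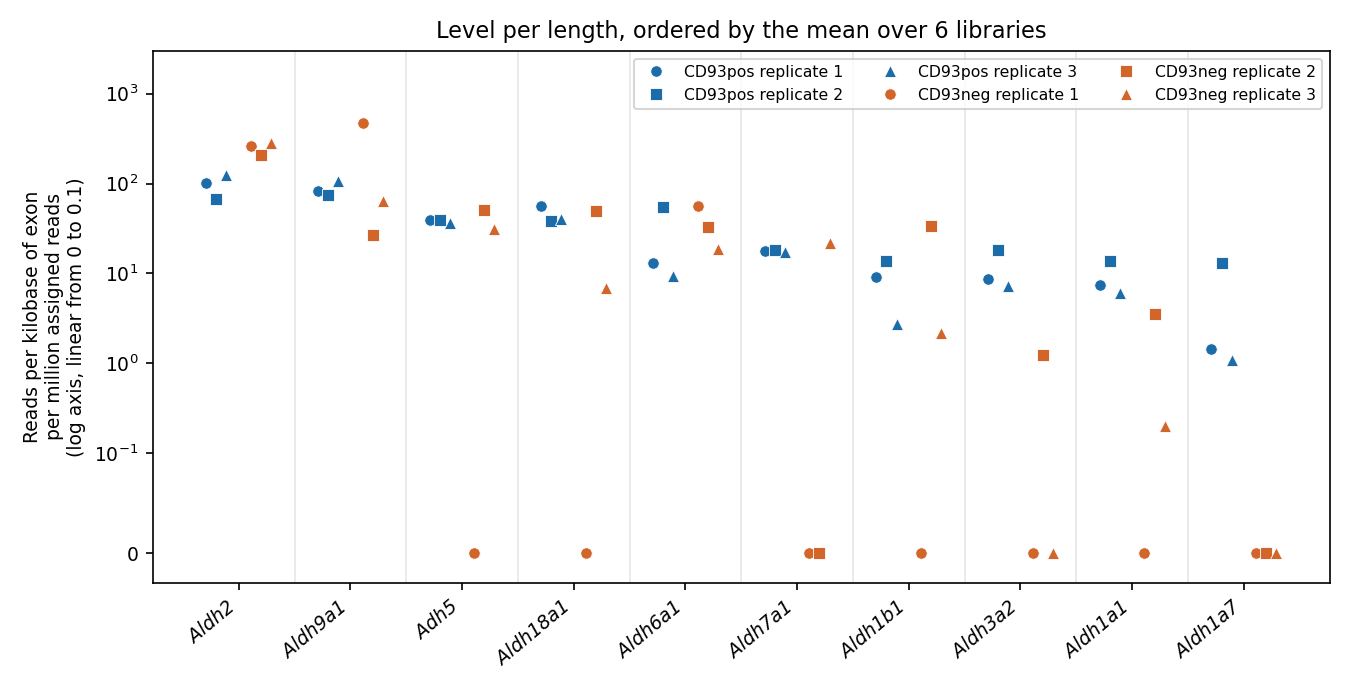
RPKM of the 10 genes in each library, on a log axis that is linear from 0 to 0.1, ordered by the mean over 6 libraries. Aldh2 and Aldh9a1 lie above 26 RPKM in every library, and the 3 genes at the right were at or below 18.4.

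The 5 genes whose log2(normalized count + 1) followed that of Aldh2 most closely, among 7235 genes with a mean of at least 100, were Lgals3, Lyl1, Mettl7a1, Crip1 and Slfn2. Their Pearson correlations with Aldh2 over the 6 libraries were 0.991, 0.981, 0.978, 0.970 and 0.968. These describe 6 points that share library, depth and group, so any gene that divides the groups scores high. Lyl1, a transcription factor of blood stem and progenitor cells, had normalized counts of 923, 928 and 1271 in CD93pos and 2919, 2059 and 2609 in CD93neg. For Lgals3, which encodes galectin-3, they were 27.0, 15.8 and 52.3 against 1470, 396 and 1099. Both were lower in every CD93pos library, and like Aldh2 both were lowest within CD93neg in replicate 2. Mettl7a1 had a CD93neg to CD93pos ratio of 3.78, Crip1 of 2.01 and Slfn2 of 7.88. Among the 10 genes, the correlation with Aldh2 was -0.96 for Aldh1a7 and Aldh3a2 and -0.89 for Aldh1a1. It was 0.27 for Aldh9a1 and 0.18 for Aldh6a1.

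**Figure D5:**
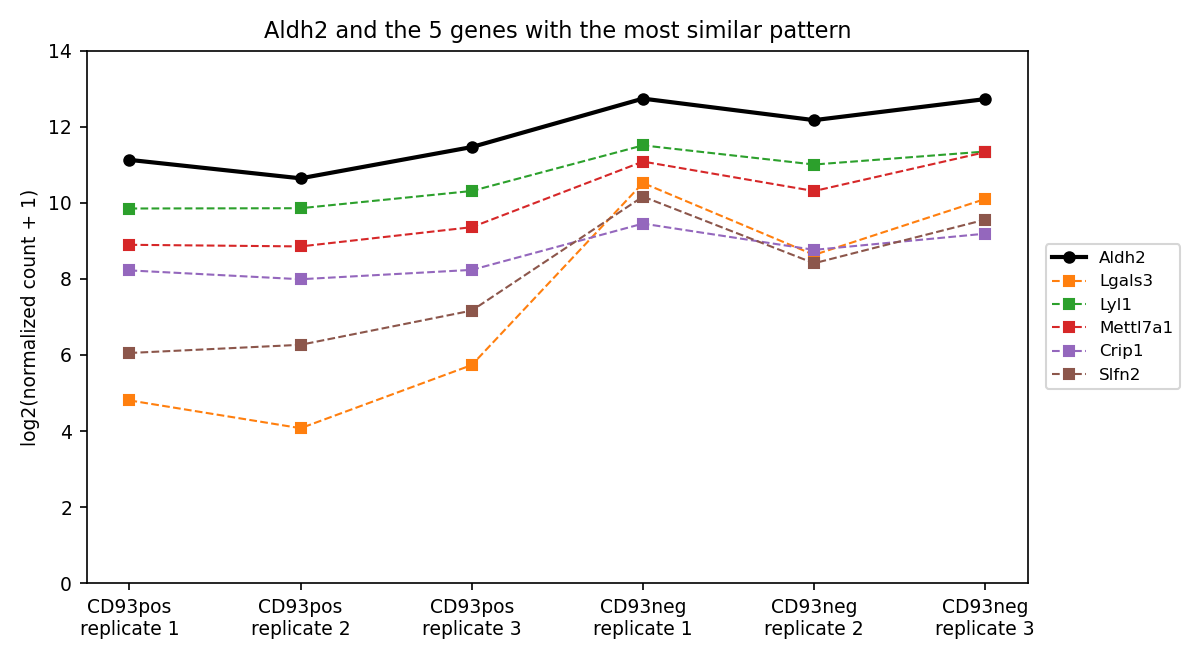
log2(normalized count + 1) of Aldh2 (black) and the 5 genes most correlated with it, for each library, with lines that only join the points of a gene. All 6 genes were lower in each CD93pos library than in each CD93neg library. The 5 were chosen by their correlation with Aldh2, which favours this pattern.

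Other genes of aldehyde metabolism were counted in 9 lists with 119 entries, of which 85 were tested. None passed the limma test in either direction, as for all tested genes, and 70 of the 85 had a positive fold change, beside 79.9% of all tested genes. Of 12 other aldehyde dehydrogenases, 4 had no read anywhere and 6 were tested, 3 with a positive fold change and a median of 0.87. Without CD93neg replicate 1 that median was -1.33, beside 0.43 for all genes. Aldh16a1, a divergent member of the family, had normalized counts of 292, 351 and 345 in CD93pos and 0, 706 and 485 in CD93neg. Aldh4a1, which oxidizes the semialdehyde made from proline, had 30.6, 216 and 16.0 against 0, 162 and 0. Neither divided the groups. Of 6 genes for alcohol dehydrogenases and the glutathione route of formaldehyde, only Esd, which acts after Adh5, was tested. Its mean was 614 ± 108 in CD93pos and 818 ± 458 in CD93neg. Adh4 had 6 reads in CD93neg replicate 2 and none elsewhere.

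Lists that share a substrate or product with single members gave similar pictures. Retinoid pathway genes, around Aldh1a1, were positive in 9 of 9 tested with a median of 2.36, equal to that of all genes. Without CD93neg replicate 1 their median was 0.06, against 0.43 for all genes. Rdh11, a retinol dehydrogenase, had mean values of 226 ± 70.4 in CD93pos and 174 ± 217 in CD93neg. Proline and glutamate semialdehyde enzymes, around Aldh18a1, were positive in 6 of 7 with a median of 3.52, or 0.88 without CD93neg replicate 1. Among them Glud1, glutamate dehydrogenase, had 1007 ± 143 and 1269 ± 307, and Oat, ornithine aminotransferase, had 1154 ± 62.7 and 297 ± 514 with reads in CD93neg replicate 3 only. Genes of valine, lysine and choline breakdown, around Aldh6a1, Aldh7a1 and Aldh9a1, were positive in 10 of 12 with a median of 3.23, and 1.19 without CD93neg replicate 1. Mut, methylmalonyl-CoA mutase, had 4475 in CD93neg replicate 1 and 0 in replicate 2, and Hibadh, which makes a substrate of Aldh6a1, had 1453 ± 585 in CD93pos and 440 ± 445 in CD93neg. Fatty aldehyde and sphingolipid genes, around Aldh3a2, were positive in 7 of 8 with a median of 1.97, and -1.03 without CD93neg replicate 1. Far1, a fatty acyl-CoA reductase, had 695 ± 548 and 261 ± 239, and Phyh, phytanoyl-CoA hydroxylase, had 274 ± 119 and 383 ± 335.

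Carbonyl reductases and conjugating enzymes were positive in 10 of 13 tested with a median of 2.08, and 0.46 without CD93neg replicate 1. Park7, which encodes the protein DJ-1, had 2119 ± 112 in CD93pos and 1421 ± 215 in CD93neg, and every CD93pos library was above every CD93neg library. Akr1a1, an aldehyde reductase, had 1198 ± 491 and 564 ± 754. Enzymes that release formaldehyde or acetaldehyde, or feed their turnover, were positive in 8 of 10 with a median of 1.86, and -0.08 without CD93neg replicate 1. Of these, Shmt2, a mitochondrial serine hydroxymethyltransferase, had 906 ± 262 and 1948 ± 1455, and Cat, catalase, had 1146 ± 415 and 1558 ± 1904. Fanconi crosslink repair genes were positive in 17 of 19 with a median of 3.17, and 1.67 without CD93neg replicate 1. Of the 19, 6 had every CD93pos library above every CD93neg library, where the background was 18.3%. The most abundant, Fancl and Mad2l2, did not divide the groups: Fancl, a ubiquitin ligase, had 183, 0 and 303 in CD93pos and 1739, 0 and 173 in CD93neg. Mad2l2, a polymerase subunit, had 188 ± 87.7 and 514 ± 680.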

How the data were processed

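Libraries were grouped by the titles in the labels. The submitters' processing notes name STAR, featureCounts (Subread 1.5.0-p1) and DESeq2 1.26 on GRCm38, also listed as mm10. For strand setting and annotation release, the sources used here give nothing. The authors deposited a signal table of counts divided by a size factor for each library. A second deposited table holds their log2 fold changes, Wald score, p-value and adjusted p-value. Dividing by the step of each library recovered whole reads for 100% of values above 0, within 0.001.

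A minimum mean normalized count of 10 was set, and the remaining genes were tested with limma 3.58.1 (trend, two-sided, Benjamini-Hochberg, threshold 0.05) on log2(value + 1). This scale gives large folds where a library is at 0. edgeR 4.0.16 and DESeq2 1.42.0 on recovered reads were alternatives, with R 4.3.3. Levels per length used exon unions of GENCODE M21, which held 47224 of the 47937 IDs, 39106 of them in the same version. Depth limits low values: 3 reads, the limit that a count of 0 allows, equal 0.315 to 1.06 CPM. Reads of amplified libraries are not independent molecules, so intervals and floors cover counting error only.

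The members and lists were chosen with earlier results of these data known. Named genes were the members, up to 2 of each list by highest mean, any list gene past the threshold, and 5 genes most correlated with Aldh2, leaving out predicted genes, pseudogenes, mitochondrial genes and antigen receptor segments. A further gene that this rule names is not reported here. Alternatives covered pseudocount, filter, scaling, test, transcript length, replicate block and libraries left out. The ratios of mean normalized counts without single libraries were added after seeing the data.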

Additional observations from a re-analysis of the deposited data

How the results depend on the processing

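The count of genes called was 0 with a pseudocount of 10, with no filter, with a mean of at least 50, with scaling to all assigned reads, after quantile normalization and with edgeR. It was 206 with a pseudocount of 0.5, 261 with TMM scaling and 705 with DESeq2. Leaving out 1 library gave 0 to 1880 calls, with 774 without CD93pos replicate 2, 1 without CD93neg replicate 1 and 1880 without CD93neg replicate 3. Without CD93neg replicates 2 and 3 together it was 7892, where the lone sparse CD93neg library was assumed to vary like CD93pos. Why these counts moved was not tested.

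Blocking on the replicate number gave 24 calls among 11805 genes, Aldh2 among them. The set was chosen for Aldh2 in this contrast, so that call is no support. The labels do not say that numbers pair libraries, and same-numbered deviations correlated at 0.037, 0.019 and 0.061, although 6 of 6 libraries correlated best with their own number.

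Of 169 fold changes of the 10 genes under these alternatives, 8 had the opposite sign: 3 for Aldh9a1 (TMM, quantile, without CD93neg replicate 1), 4 for Aldh1b1 (quantile, edgeR, DESeq2, without CD93neg replicate 1) and 1 for Adh5 (without CD93neg replicate 1). Aldh2 stayed between -1.66 and -1.10. In all, 22 values moved by at least the replicate SD or changed sign. Aldh7a1 went from 5.66 to 1.29 with edgeR and 1.23 with DESeq2, Aldh1a1 from 4.61 to 1.80 after quantile normalization, and Aldh1a7 from 4.73 to 0.21 after quantile normalization and 8.90 with edgeR. Quantile normalization moved the median of all genes from 2.36 to 0.02, and higher and lower genes at an unadjusted p under 0.05 from 1391 and 45 to 689 and 916.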
